A study of Mus musculus with 2 samples.

Results

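The 4 mouse genes described here encode the microRNAs that bind or cut Cdr1as, a circular RNA of the brain. Mir7-1, Mir7-2 and Mir7b make miR-7, and Mir671 makes miR-671. They were chosen by symbol, not by level, from the 2202 microRNA genes of the deposited tables, through the GENCODE M21 names of the gene IDs. All 4 passed the minimum of 10 reads in both libraries, as did 389 genes in all. The tissue was labelled as a layer of the hippocampus and came from adult male mice of the strain label 5xFAD/CAST, aged 8 to 10 months. 5xFAD mice model Alzheimer disease through transgenes known to be driven by the neuronal Thy1 promoter, and CAST is a wild-derived strain. The labels name no allele beyond the strain, and both libraries, replicates 1 and 2 of a single group, share it. There was no control group, so nothing below is an effect of genotype or age. The labels give 1 donor record for both tissues and do not settle whether these came from separate animals, so the spread between the libraries may be technical.

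MicroRNAs guide Argonaute proteins to RNAs that pair with their seed, the bases from position 2 to 8. Cdr1as is a circular RNA of neurons with many sites for miR-7 and a single, extensively paired site for miR-671, at which Argonaute 2 is known to slice the circle. In mice that lack the Cdr1as locus, brain miR-7 is known to be lower and miR-671 higher. Cyrano, a long noncoding RNA, is known to trigger the destruction of miR-7 through a site paired on both sides of a bulge. Brain miR-7 is also known as a repressor of alpha-synuclein mRNA.

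The mature sequences are shown first, because which reads can be assigned to a gene depends on them. All are from RefSeq (GRCm38.p6), 5′ to 3′, with the seed in capitals. All 4 genes matched by symbol, and each RefSeq hairpin was identical to the M21 hairpin.
miR-7a-5p (Mir7-1 and Mir7-2): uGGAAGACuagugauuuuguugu
miR-7b-5p (Mir7b): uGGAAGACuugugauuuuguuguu
miR-7a-1-3p (Mir7-1): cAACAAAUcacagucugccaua
miR-7a-2-3p (Mir7-2): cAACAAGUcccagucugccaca
miR-7b-3p (Mir7b): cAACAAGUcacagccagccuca
miR-671-5p (Mir671): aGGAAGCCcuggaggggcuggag
miR-671-3p (Mir671): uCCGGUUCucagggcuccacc
The 5p arms of all 3 miR-7 genes share 1 seed, and no other mature sequence in the RefSeq table has it. Counted from the 5′ end, miR-7a-5p and miR-7b-5p differ by A10U over the 23 positions compared, outside the seed. The 3p arms differ more. From miR-7a-1-3p to miR-7a-2-3p the substitutions are A7G, A10C and U21C, of which A7G lies in the seed. Thus miR-7a-2-3p and miR-7b-3p have 1 seed and miR-7a-1-3p has its own. The seed of miR-671-5p differs from that of miR-7 by A7C alone.

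The hairpins show where the genes can be told apart. Mature arms are in capitals.
Mir7-1: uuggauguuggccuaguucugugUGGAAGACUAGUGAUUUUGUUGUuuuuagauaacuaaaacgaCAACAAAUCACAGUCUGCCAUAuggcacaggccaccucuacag
Mir7-2: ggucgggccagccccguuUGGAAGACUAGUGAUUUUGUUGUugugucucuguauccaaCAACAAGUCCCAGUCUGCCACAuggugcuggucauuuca
Mir7b: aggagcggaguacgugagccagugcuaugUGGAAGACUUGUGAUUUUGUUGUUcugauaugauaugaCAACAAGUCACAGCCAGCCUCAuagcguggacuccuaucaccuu
Mir671: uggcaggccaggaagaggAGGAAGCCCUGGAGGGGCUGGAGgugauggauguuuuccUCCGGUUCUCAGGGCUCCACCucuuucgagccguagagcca
Mir7-1 and Mir7-2 share a stretch of 24 bases, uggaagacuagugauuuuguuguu, which is the whole 5p arm and the base after it. A 5p read of up to 24 bases that starts at the annotated end therefore fits both genes equally, while a 3p read fits 1. The tables set reads that fit several places apart, without a gene name. Mir7b shares at most 14 bases in a row with either copy, and neither Mir7b nor Mir671 shares 20 bases with any other microRNA gene. The counts are per hairpin, and do not separate the arms. The levels of Mir7-1 and Mir7-2 are for these reasons uncertain and are not the level of miR-7a-5p. By contrast, neither arm of Mir7b or Mir671 occurs exactly in another annotated microRNA gene. Only exact matches were searched, and miR-7b-5p differs from miR-7a-5p by A10U alone over the positions compared. Whether reads with a mismatch were assigned to the wrong miR-7 gene or set apart was not tested. Copies elsewhere in the genome were not searched.

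**Figure D1:**
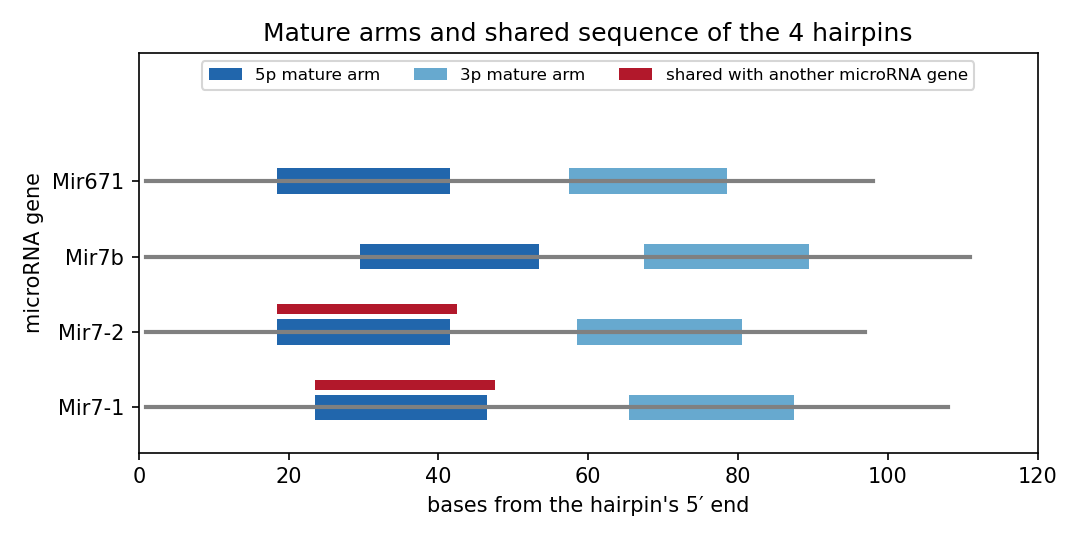
Positions along the 4 hairpins, in bases from the 5′ end. Dark and light blue boxes are the 5p and 3p mature arms, and red bars mark sequence shared with another microRNA gene over at least 20 bases. The red bars cover the 24 bases around the 5p arms of Mir7-2 and Mir7-1, and Mir671 and Mir7b have none.

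The genes lie on different chromosomes, and no other microRNA gene lies within 10 kb of any of them. Coordinates are of mm10. Mir7-1 (ENSMUSG00000065434.1, chr13:58392779-58392886, minus strand) lies in an intron of Hnrnpk, which encodes an RNA-binding protein, on its strand. It lies within 12 Hnrnpk transcripts and in no annotated exon of them. Mir7-2 (ENSMUSG00000065609.1, chr7:78888277-78888373, plus strand) overlaps no other annotated gene, and the nearest within 10 kb is Aen, 7481 bases away. Mir7b (ENSMUSG00000065491.1, chr17:56242988-56243098, plus strand) also overlaps none and starts 183 bases past the end of the noncoding AC026385.1 on its strand. Mir671 (ENSMUSG00000076387.1, chr5:24592114-24592211, plus strand) is exonic, lying wholly within the coding sequence of both Chpf2 transcripts that span it. Chpf2 encodes an enzyme of chondroitin synthesis. On the other strand Mir671 also lies within an exon of a Smarcd3 transcript. No read of the opposite strand was counted at any of the 4 genes, and the counts were the same with and without regard to strand.

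By assigned reads Mir671 and Mir7b lay well above most detected genes, and the copies Mir7-2 and Mir7-1 lay near the middle of them. Levels are in CPM, the reads of a gene scaled to a library of 1000000 reads assigned to microRNA genes. A microRNA read is about as long as the mature molecule, so CPM is not divided by hairpin length. In tissue, fewer cells of a type and less RNA per cell cannot be told apart. The intervals are exact Clopper-Pearson 95% intervals and cover counting error only. Reads that fit several places were 38.2% of all reads in replicate 2 and 41.6% in replicate 1, and reads assigned to a microRNA gene were 33.0% (2820468) and 35.2% (3421977).

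Mir671 had 9138 reads in replicate 2 (3240 CPM, 95% interval 3174 to 3307) and 7924 in replicate 1 (2316 CPM, 2265 to 2367). Its level averaged 2778 ± 654 CPM (SD, n = 2). It was the highest of the 4 genes in both libraries, ranking 46 and 56 of 2202 genes in replicates 2 and 1. Mir7b had 6129 reads in replicate 2 (2173 CPM, 2119 to 2228) and 7010 in replicate 1 (2049 CPM, 2001 to 2097), an average of 2111 ± 88.1 CPM. Its ranks were 61 and 60, and 84.3% and 84.6% of the detected genes were lower.

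Mir7-2 had 593 reads in replicate 2 (210.2 CPM, 193.7 to 227.9) and 274 in replicate 1 (80.1 CPM, 70.9 to 90.1). It averaged 145 ± 92.1 CPM, and the SD was 63.4% of the mean, against a median of 24.9% over detected genes. Mir7-1 had 216 reads in replicate 2 (76.6 CPM, 66.7 to 87.5) and 222 in replicate 1 (64.9 CPM, 56.6 to 74.0), an average of 70.7 ± 8.28 CPM. It was the lowest of the 4, near the middle of the detected genes, whose median was 105 CPM.

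The order was Mir671, Mir7b, Mir7-2 and Mir7-1 in each library. Between the neighbours Mir671 and Mir7b, the difference of the means was about as large as the SD of Mir671, although their ranges over the libraries did not overlap. Between Mir7-2 and Mir7-1 the difference of the means was smaller than the SD of Mir7-2, and in replicate 1 their counting intervals overlapped. With 2 values for each gene an exact permutation test cannot give a p below 0.333, so none of these steps was tested.

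**Figure D2:**
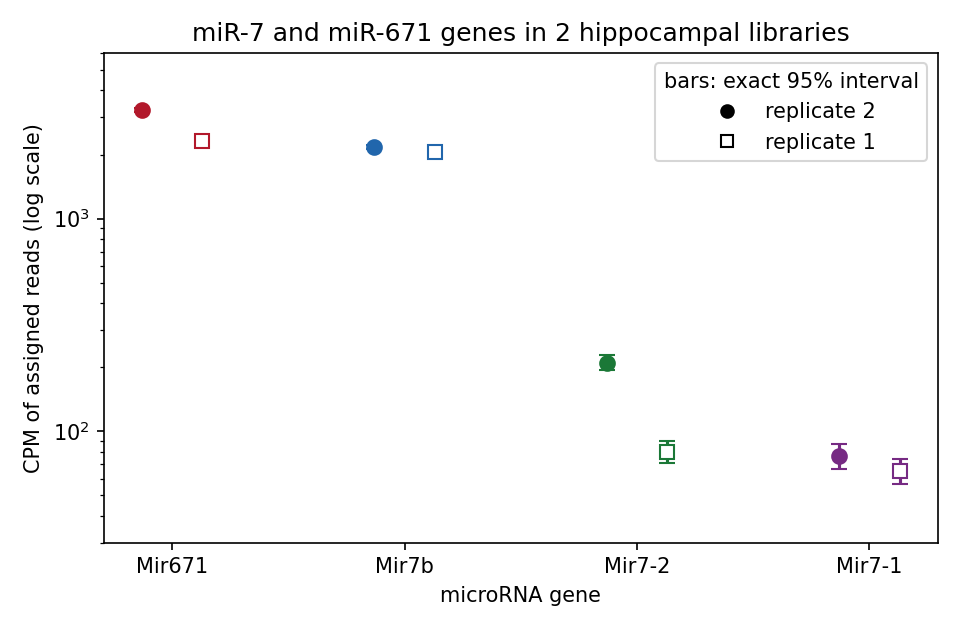
CPM of each gene (log scale) in replicate 2 (filled circles) and replicate 1 (open squares), with exact 95% counting intervals. Mir671 and Mir7b lie between 2049 and 3240 CPM, Mir7-2 and Mir7-1 between 64.9 and 210.2 CPM, and Mir7-2 is the gene whose libraries stand furthest apart.

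**Figure D3:**
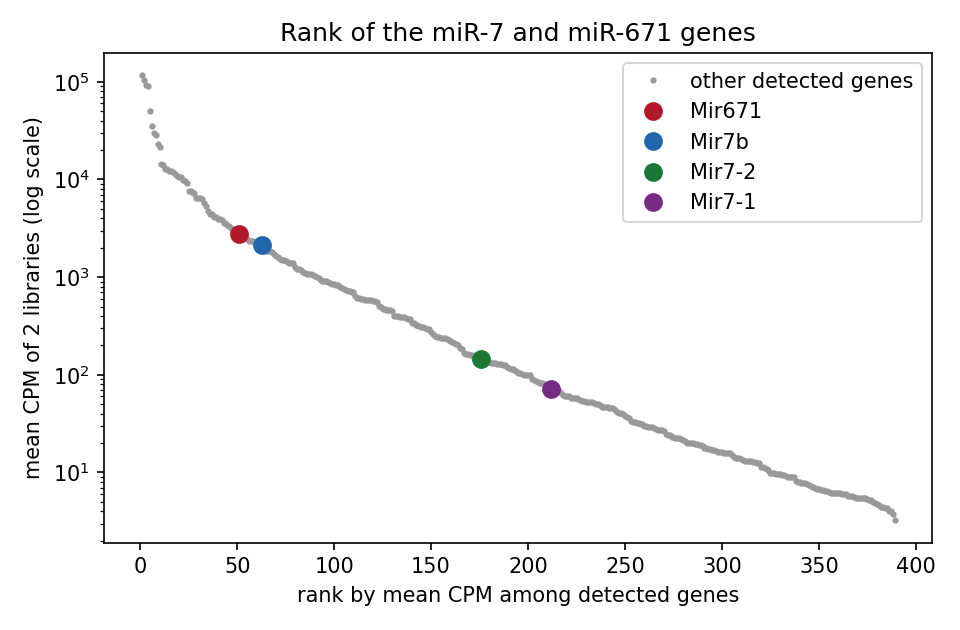
Mean CPM of the 2 libraries (log scale) against rank for the 389 detected genes (grey), with the 4 genes in colour. Mir671 and Mir7b rank 51 and 63 by the mean, and Mir7-2 and Mir7-1 rank 176 and 212.

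Mir7b supplied most of the reads assigned to miR-7 genes. The 3 genes together had 6938 reads in replicate 2 and 7506 in replicate 1, or 2460 and 2193 CPM, an average of 2327 ± 188 CPM. Mir7b held 88.3% of them in replicate 2 (95% interval 87.6 to 89.1) and 93.4% in replicate 1 (92.8 to 93.9), on average 90.9% ± 3.57. Mir7-2 held 8.55% in replicate 2 and 3.65% in replicate 1, and Mir7-1 held 3.11% and 2.96%. Per read of the 2 copies together there were 7.58 Mir7b reads in replicate 2 and 14.1 in replicate 1. Since reads of miR-7a-5p fit both copies, these shares describe assigned reads and do not give the proportion of miR-7b to miR-7a in the tissue. Per assigned read of the 3 miR-7 genes there were 1.32 Mir671 reads in replicate 2 and 1.06 in replicate 1. This ratio leaves out any reads of miR-7a-5p that were set apart, whose number is not known, and it does not separate the arms. It is therefore not the proportion of miR-671 to miR-7 in the tissue. The 4 genes together took 0.570% and 0.451% of assigned reads.

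The position of Mir7-1 and Mir7-2 among the detected genes of the same kind was near the middle. RefSeq mature arms were matched by symbol for 954 of the 2202 genes. Of the 54 genes with 2 RefSeq mature arms of which 1 also occurs in another RefSeq hairpin, 34 were detected (63.0%). Among these 34, Mir7-2 ranked 17 and Mir7-1 ranked 19 by mean CPM. Over all 54, detected or not, the median was 22.7 CPM, and both genes lay above it. Of the 553 genes with 2 arms that occur in no other RefSeq hairpin, the class of Mir7b and Mir671, 246 were detected (44.5%).

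Between the 2 libraries, Mir7-2 and Mir671 differed beyond counting error, and Mir7b and Mir7-1 did not pass that test. Each log2 ratio sets replicate 2 over replicate 1 after TMM scaling of the library sizes. The test is a two-sided exact binomial test with Benjamini-Hochberg adjustment over the 389 detected genes. It compares 2 libraries, not conditions, and 67.6% of the detected genes passed it (33.9% higher in replicate 2). That 2 of the 4 genes passed is thus no result about these genes. Mir7-2 was 2.45-fold higher in replicate 2 (log2 ratio 1.29, 95% interval 1.08 to 1.51, adjusted p = 1.08e-36). Mir671 was 1.31-fold higher (log2 ratio 0.39, 0.34 to 0.43, adjusted p = 2.07e-67). By size of the log2 ratio, either direction, Mir7-2 ranked 52 and Mir671 ranked 234 of the 389 genes.

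Mir7b had a log2 ratio of -0.014 (95% interval -0.064 to 0.036, exact binomial adjusted p = 0.646), among the smallest of the detected genes, at rank 382. With sums of assigned reads in place of TMM its log2 ratio was 0.085 (exact binomial adjusted p = 0.00137), and with DESeq2 size factors it was -0.067 (adjusted p = 0.0128). These scalings move the ratio of every gene by the same amount, and the median over all detected genes was 0.053 with TMM, 0.15 with sums and 0 with DESeq2. Mir7b lay below that median, and its place relative to it is the same under all 3 by construction. Mir7-1 had a log2 ratio of 0.14 (-0.14 to 0.42, adjusted p = 0.378). In the edgeR exact test, whose error was taken from how far the libraries lie apart (common biological coefficient of variation 0.41), none of the 4 passed, each with an adjusted p of 1, and their unadjusted p lay between 0.14 for Mir7-2 and 0.987 for Mir7b. That test called 2 of the 389 genes (0.514%), and 23 had an unadjusted p under 0.05.

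**Figure D4:**
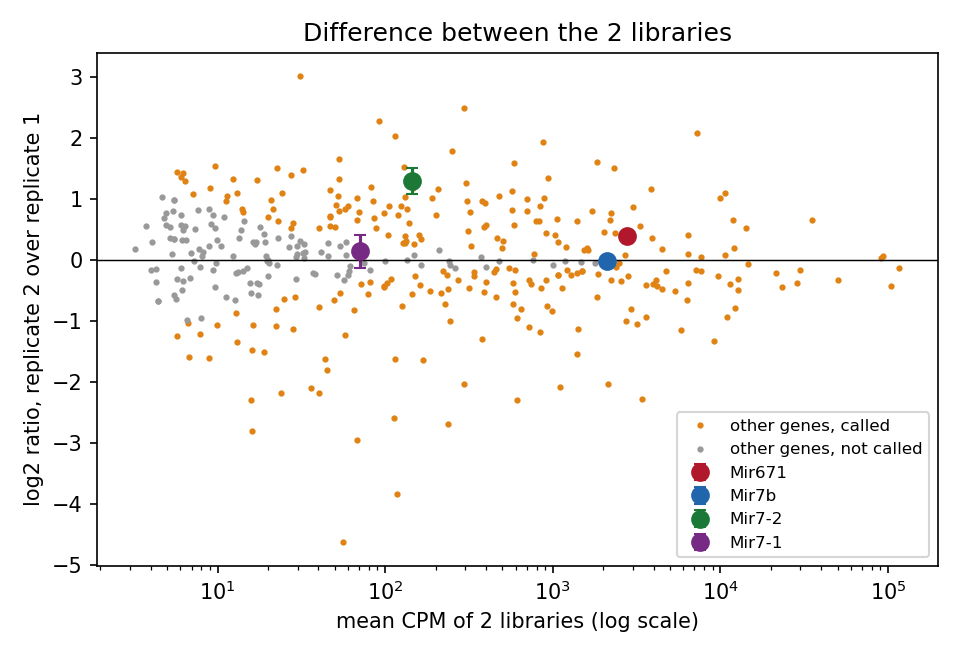
Log2 ratio of replicate 2 over replicate 1 against mean CPM (log scale) for the 389 detected genes, orange where the exact binomial test passed and grey where it did not. The 4 genes are in colour with 95% counting intervals. Mir7-2 lies at 1.29 and Mir671 at 0.39, and Mir7b and Mir7-1 have intervals that include 0.

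The difference between the libraries was also set beside that of genes with a like GC content of the hairpin. Each set of genes includes the gene it is set beside. Mir671 has a GC content of 61.2%, and the 85 detected genes within 5 percentage points of it had a median log2 ratio of 0.36, close to its own 0.39. Mir7-2 has 50.5%, and the 153 genes near it had a median of -0.013, far from its own 1.29. The sets for Mir7b (46.8%) and Mir7-1 (41.7%) had medians of -0.14 (133 genes) and -0.18 (106 genes). The part of GC content in these differences was not tested.

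The genes most like each of the 4 over the 2 libraries, by Euclidean distance on the log2(CPM + 1) scale, were named by a fixed rule of the nearest 3. For Mir671 these were Mirlet7f-2 (distance 0.221), Mir485 and Mir338. For Mir7b they were Mir598 (0.243), Mir342 and Mir676. Mir302a was nearest to Mir7-2 (0.0946), with 206 CPM in replicate 2 and 85.3 in replicate 1, followed by Mir302b and Mir186. Mir211 was nearest to Mir7-1 (0.175), followed by Mir193a and Mir491. With 2 libraries this likeness is one of level and of a single ratio.

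The circular RNA itself was not measured by these counts of microRNA genes. Its sequence in the annotation was searched for the sites these microRNAs are known for. The M21 gene C230004F18Rik is listed in RefSeq as Cdr1os, with Cdr1as among its older names. Among its annotated exons of up to 5000 bases, the one with the most matches to the miR-7 seed was taken (mm10 chrX:61183248-61186174, plus strand, 2927 bases), so its count is a description. The ends of this exon were not tested as the ends of the circle. The exon held 123 matches to the complement of the miR-7 5p seed, GTCTTCC, on its own strand and 0 on the other. They lay a median of 18 bases apart, between bases 26 and 2851. Of 16819 stretches of the same length, cut from the longest annotated transcript of each gene, 23.6% held at least 1 match. The most in any stretch outside C230004F18Rik was 4.

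Position 10, the base by which miR-7a-5p and miR-7b-5p differ, was examined at these matches. In a duplex without bulges, the target base 2 places before the match faces it. This base was A at 102 of the 123 matches (82.9%), G at 15, C at 4 and T at 2. A pairs with the U that miR-7b-5p has there, and T with the A of miR-7a-5p. G could also form a weaker G-U pair with the U of miR-7b-5p. The exon as a whole was 30.2% A and 26.9% T. The matches are repeats of one another and do not count as separate evidence, and pairing at this position was not measured.

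For the sites shown here and for Cyrano below, only A with U and G with C were counted as pairs, and G facing U was not. The place in the exon that best matched the full complement of each 5p arm, without gaps, is shown from the M21 transcripts. It is given as DNA, 5′ to 3′, with the bases counted as paired in capitals.
miR-671-5p site (chrX:61186029-61186051): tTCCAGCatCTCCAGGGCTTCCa
miR-7b-5p site (chrX:61183570-61183593): ttCcAgAAAAatcCAAGTCTTCCA
By this count the miR-671-5p site paired at 19 of 23 positions, with positions 1, 15, 16 and 23 of the microRNA unpaired. At positions 15 and 23 a G of the microRNA faces a T, which could form a weaker G-U pair. The site is the only match in the exon to the miR-671-5p seed complement GGCTTCC, a motif found in 27.8% of the stretches of the same length. It lies toward the 3′ end, with 2781 bases of the exon before it and 123 after it. The miR-7b-5p site, by contrast, paired at 17 of 24 positions, mostly toward the seed, and there a G at position 13 faces a T. For miR-7a-5p the best place was the same one, with 16 of 23 positions paired and position 10 among those unpaired. The 3p arms had no seed match in the exon. The motifs searched were ATTTGTT (miR-7a-1-3p), ACTTGTT (miR-7a-2-3p and miR-7b-3p) and GAACCGG (miR-671-3p), found in 24.8%, 17.1% and 7.47% of the stretches.

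**Figure D5:**
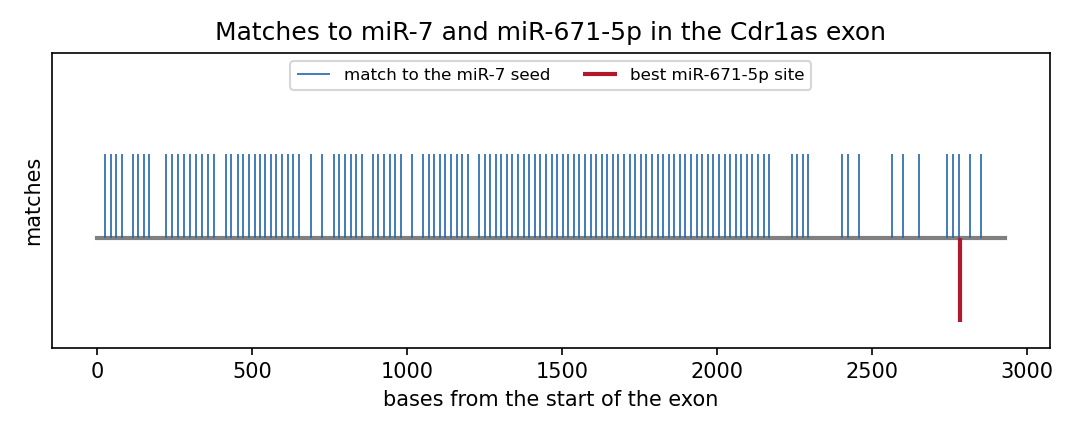
Matches along the C230004F18Rik exon that was chosen for its matches to the miR-7 seed, in bases from its start. RefSeq lists Cdr1as as an older name of the gene, not of this exon. Blue lines above are the 123 matches to the miR-7 seed, and the red line below is the best miR-671-5p site, which begins at base 2782.

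Cyrano is annotated as 1700020I14Rik in M21 and as Oip5os1 in RefSeq, which lists Cyrano among its older names. Its longest transcript, of 8300 bases, held 2 matches to GTCTTCC. One of them is the site shown here, with the seed match and the longest run that pairs with miR-7b-5p before it in capitals (the last base, which faces position 1, is not marked).
Cyrano site (mm10 chr2:119602136-119602161): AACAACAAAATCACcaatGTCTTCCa
Besides the seed, a run of 14 bases pairs with positions 11 to 24 of miR-7b-5p, with 4 target bases between the 2 paired parts. This run leaves out position 10, at which miR-7a-5p and miR-7b-5p differ. At the other match, the longest run before the seed was 3 bases.

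Other microRNAs that share a role with miR-7 were described from lists chosen with earlier results of these data known. In the list of other microRNAs reported to repress alpha-synuclein, all 4 were detected, and by the exact binomial test 2 were higher and 2 lower in replicate 2. Of all detected genes 33.9% were called higher and 33.7% lower, and no count of a list here is read as particular to it. Mir34c had 750 CPM in replicate 2 and 2045 in replicate 1, and Mir153, a neuronal microRNA, had 436 and 170 CPM. Mir214 had 76.9 and 28.6 CPM. Mir7b was above all 4 by mean CPM, but in replicate 1 it had 2049 CPM, level with Mir34c. In the list of other microRNAs known to be degraded through an extensively paired target, the class of the miR-7 and Cyrano pairing, all 5 were detected, 2 higher and 2 lower. Mir30c-2, Mir30c-1 and Mir30b led it with 244 ± 1.52, 161 ± 24.5 and 102 ± 13.8 CPM. Of 17 genes listed for brain microRNAs encoded by several copies, 12 were detected, 7 higher and 4 lower in replicate 2. Mir153, again among those higher, is on this list but has 1 gene in these tables. Mir128-1 (7201 ± 218 CPM), Mir138-1 (3306 ± 1056 CPM) and Mir219a-2 (2819 ± 223 CPM) led it. Like Mir7-1 and Mir7-2, the genes Mir128-1, Mir138-1, Mir30c-2 and Mir30c-1 each have 1 mature arm that also occurs in another hairpin. The only RefSeq arm of Mir219a-2 does so too. The levels of these 5 genes are therefore also uncertain. The median log2 ratios of these 3 lists were 0.33, -0.086 and 0.47, against 0.053 over all detected genes.

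Markers of the tissue and of other cell types were described because miR-7 is also known from endocrine cells of islets and pituitary. Of 15 genes on the neuron-enriched list, 12 were detected, led by Mir132, Mir128-1 and Mir137. Their summed levels were 35921 CPM in replicate 2 and 34067 in replicate 1. By the binomial test 9 were higher and 3 lower in replicate 2, against 33.9% and 33.7% of all detected genes. The median log2 ratio of this list was 0.52. The neuronal Mir124a-2 and Mir124a-3 were at 0 in both libraries, and Mir124a-1 had 5 reads in each. The copies of Mir124a are known to make the same mature microRNA, and reads shared by copies are set apart in these tables, so these counts do not give the level of miR-124. The islet and pituitary list, with 5 of 6 detected, summed to 534 CPM in replicate 2 and 1078 in replicate 1. All 5 passed the test as lower in replicate 2 (median log2 ratio -2.19), as did 33.7% of all detected genes, and none of the 6 was at 0. Mir375, the best known islet microRNA, had 456 and 706 CPM, Mir200c 33.7 and 191, and Mir429 21.3 and 69.3. Apart from Mir375 the list holds the miR-200 family, which is known from epithelia in general, so it is not specific to endocrine cells. The epithelial Mir183 (16.3 and 219 CPM), Mir182 (16.3 and 119) and Mir203 (85.5 and 250), which are not on it, were also called lower in replicate 2. Mir7-2, whose level is uncertain, was higher in replicate 2, and Mir7b passed in neither direction with TMM scaling. Whether endocrine cells contribute to the reads of either gene was not tested. Summed levels were 1638 and 3416 CPM for the choroid plexus and ependyma list (5 of 7 detected, 1 higher and 3 lower, Mir449b at 0), which also holds Mir34c. They were 13157 and 21670 CPM for the endothelial and mural list (3 of 3, all lower) and 6671 and 5027 CPM for the oligodendrocyte list (2 of 3, 1 higher and 1 lower). The erythroid list (3 of 3 detected, 1 higher) and the striated muscle and liver list (2 of 7, none called, with Mir133a-2, Mir133b and Mir1a-1 at 0) summed to 59.9 and 50.4 CPM in replicate 2, and 47.6 and 51.4 in replicate 1. Median log2 ratios were -0.60 for the choroid plexus and ependyma list, -1.32 for the endothelial and mural list and 0.30 for the oligodendrocyte list. They were -0.050 for the erythroid list and -0.22 for the striated muscle and liver list. The part of cell makeup in the levels of the 4 genes was not tested.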

How the data were processed

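MicroRNA-seq of 2 libraries of 1 group was analysed. For each microRNA gene the tables the authors deposited give raw counts without normalization in 3 columns (any strand, gene strand, opposite strand). Assembly mm10 and annotation M21 come from the notes deposited beside them. The sources used here do not name the aligner, the counting tool or the trimming. The gene-strand column was used. The 4 rows that name no gene held 67.0% of reads in replicate 2 and 64.8% in replicate 1 and entered neither library sizes nor tests. Depth was 2820468 and 3421977 assigned reads, where 3 reads, the limit for a count of 0, are 1.06 and 0.877 CPM. Without molecular identifiers, intervals cover counting error only.

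CPM, exact Clopper-Pearson 95% intervals and exact binomial tests of both counts given TMM-scaled sizes were computed in scipy 1.17.1 and edgeR 4.0.16 (R 4.3.3). With 1 group there is no contrast for a quasi-likelihood test. The minimum for testing a gene was 10 reads in each library, with Benjamini-Hochberg adjustment and a threshold of 0.05. The binomial test was run on data simulated with counting error alone. This checks the computation and not how the test behaves with the wider spread between these 2 libraries. The named genes were the 4 members, the 3 nearest to each and the 3 highest of each list, and the members and lists were chosen with earlier results of these data known. Alternatives changed the scaling (DESeq2 1.42.0 size factors among them), strand column, minimum count, test, length scaling and the length of shared stretches.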

Additional observations from a re-analysis of the deposited data

How the results depend on the processing

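The order Mir671, Mir7b, Mir7-2, Mir7-1 held in each library and per hairpin length, and the other alternatives could not change it, since they divide all genes of a library by 1 number. Mean CPM moved with the denominator by construction. For Mir671, Mir7b, Mir7-2 and Mir7-1 it was 942, 719, 48.8 and 24.1 with all reads as the library size, and 6829, 5199, 356 and 174 without the 10 most abundant genes. Per hairpin length it was 1568 for Mir7b and 54 for Mir7-1, and with any-strand library sizes it was 2259 for Mir7b. Leaving out 1 replicate gave 2316 to 3240 CPM for Mir671, 2049 to 2173 for Mir7b, 80.1 to 210.2 for Mir7-2 and 64.9 to 76.6 for Mir7-1, and Mir7b shares of 88.3% to 93.4%, Mir7-2 shares of 3.65% to 8.55% and Mir7-1 shares of 2.96% to 3.11%.

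Mir7-2 and Mir671 passed the binomial test under every scaling and minimum tried. In the edgeR exact test, which takes its error from the same 2 libraries, their log2 ratios were 1.29 and 0.39 and neither passed, so 0 of the 4 genes and 2 of 389 genes were called, against 263 by the binomial test. For Mir7b the log2 ratio was -0.067 with DESeq2 size factors (adjusted p = 0.0128) and reversed to 0.085 with sums of assigned reads (adjusted p = 0.00137). These scalings shift every gene alike, so a ratio this near 0 takes its sign from the scaling. Of the minimum stretches of 18, 20 and 22 bases, none could lose the shared 24, and none added another. No paired analysis was possible because there is 1 group. Leaving out a library leaves no ratio between libraries. Depth limits Mir7-1 and Mir7-2, with 216 to 593 reads a library.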
